A study of Homo sapiens with 6 samples.

Results

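The 10 genes described here encode RNA polymerase II elongation factors: the TFIIS genes TCEA1, TCEA2 and TCEA3, the ELL genes ELL, ELL2 and ELL3, the elongin subunits TCEB1, TCEB2 and TCEB3 (now named ELOC, ELOB and ELOA) and SUPT5H. They were found by gene symbol in the platform annotation of the arrays, and 27 of the 41091 probe sets assigned to a single gene belonged to them. These genes were 10 of 19775 with such a probe set, and all 10 had a main probe set, the one with the highest mean, above the limit set for dim genes. TCEA3 was selected on its measured difference between the sorted cells, being 1 of 8 genes past the adjusted threshold once same-numbered arrays were treated as pairs. Its difference is therefore given as a description without a test. The other 9 genes were added by family, with earlier results of these data known.

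The arrays measured total RNA of COLO-320DM, an established human colorectal cancer cell line that grows in culture, sorted into 2 populations by CD44, a hyaluronan receptor at the cell surface. There were 3 CD44-positive and 3 CD44-negative arrays, each numbered 01, 02 and 03, and neither sort had been treated. Because a single line was used, the values describe subsets of that line only. The labels name neither a culture shared by same-numbered arrays nor separate cultures for the replicates, so the p-values cover no more than the variation among these arrays, which may be technical.

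RNA polymerase II frequently stalls or slides backwards as it copies a gene. TFIIS enters the polymerase and stimulates it to cut the misplaced RNA end, so that synthesis can resume, while ELL proteins and elongin raise the rate of elongation by suppressing transient pauses. SPT5, the product of SUPT5H, forms with SPT4 the factor DSIF, which takes part both in pausing near promoters and in productive elongation.

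Median intensities of the arrays lay between 44.9 and 46.5, and log2 values correlated between arrays at 0.991 to 0.997. CD44 itself averaged 7.70 ± 0.52 (log2, SD, n = 3) where sorted as positive and 5.23 ± 0.22 where sorted as negative, without overlap. Its difference of 2.47 did not pass limma's unpaired test over all genes (adjusted p = 0.106). With same-numbered arrays as pairs it passed (limma adjusted p = 0.00176). A gene that did not pass the unpaired test may thus still differ. Among epithelial markers of colon, CDX2 averaged 11.61 and 11.69 and KRT18 9.95 and 10.05 (CD44-positive first), whereas EPCAM and CDH1 were under the dim limit of 5.12, the 30th percentile over genes. Of 7 fibroblast markers 5 lay above that limit, with LUM and PDGFRA dim, and the summed linear intensity of the 7 ranged over the CD44-positive arrays from 1453 to 3629 and over the CD44-negative arrays from 1128 to 2266. Single markers differed between the sorts by amounts similar to that of TCEA3 or larger, KRT20 with means of 6.97 against 6.34 (a difference of 0.63), COL3A1 with 11.09 against 10.31 (0.78) and the dim LUM with 4.55 against 2.53 (2.02). KRT20 and COL3A1 were higher in the CD44-positive array of each pair. Other markers of the same lists averaged lower in the CD44-positive cells, among them COL1A1 (-0.23), PDGFRB (-0.13) and the dim EPCAM (-0.47). The 8 epithelial markers summed to 4470 to 4977 and 4512 to 5398 (CD44-positive arrays first). Because the sums are linear, the fibroblast sum mostly reflects COL3A1 and the epithelial sum mostly CDX2, and they say little of the other markers. Of the neuroendocrine, leukocyte and endothelial markers measured, 2 of 6, 2 of 5 and 2 of 4 lay above the limit, and the ranges of their sums overlapped between the sorts. Among the neuroendocrine markers ENO2 averaged 5.42 against 4.93 (0.49), and SYP and the dim CHGB each differed by 0.17. The dim CHGA, SCG2 and INSM1 averaged lower, by -0.02, -0.09 and -0.07. ENO2 and the fibroblast marker COL1A2 (5.40 against 5.09) averaged under the limit in the CD44-negative arrays. The part of these markers in the results below was not tested. In sorted populations measured in bulk, fewer cells with a transcript and less RNA of it per cell cannot be told apart.

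TCEA3 was higher in the CD44-positive cells on every array. Its main probe set, 226388_at, read 9.51, 9.72 and 9.54 on CD44-positive arrays 01, 02 and 03 and 8.58, 9.05 and 8.83 on CD44-negative arrays 01, 02 and 03 (log2). The lowest CD44-positive array lay 0.46 above the highest CD44-negative array, so the groups did not overlap. Means were 9.59 ± 0.12 and 8.82 ± 0.23 (SD, n = 3), a difference of 0.77 ± 0.13 (limma SE) on the log2 scale, with a 95% interval from 0.47 to 1.07. Same-numbered arrays differed by 0.93, 0.68 and 0.71. With the replicate number as a block the SE was 0.08 and the interval ran from 0.59 to 0.95. TCEA3 was selected in this blocked fit, so a blocked interval above 0 was fixed in advance. The selection may also overstate the difference. Of 13842 genes tested, 0.253% had a larger difference in either direction.

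The second TCEA3 probe set, 241976_at, gave a smaller difference in the same direction. It read 5.85, 6.17 and 6.12 on CD44-positive arrays 01 to 03 and 5.75, 6.02 and 5.78 on the CD44-negative ones (log2). Each CD44-positive array lay above its same-numbered partner, by 0.10, 0.15 and 0.33, but CD44-positive array 01 lay below CD44-negative array 02, so that the groups overlapped. The difference was 0.19 ± 0.12 (SE), with a 95% interval from -0.08 to 0.47. Averaging both probe sets gave a TCEA3 difference of 0.48 in place of 0.77.

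**Figure D1:**
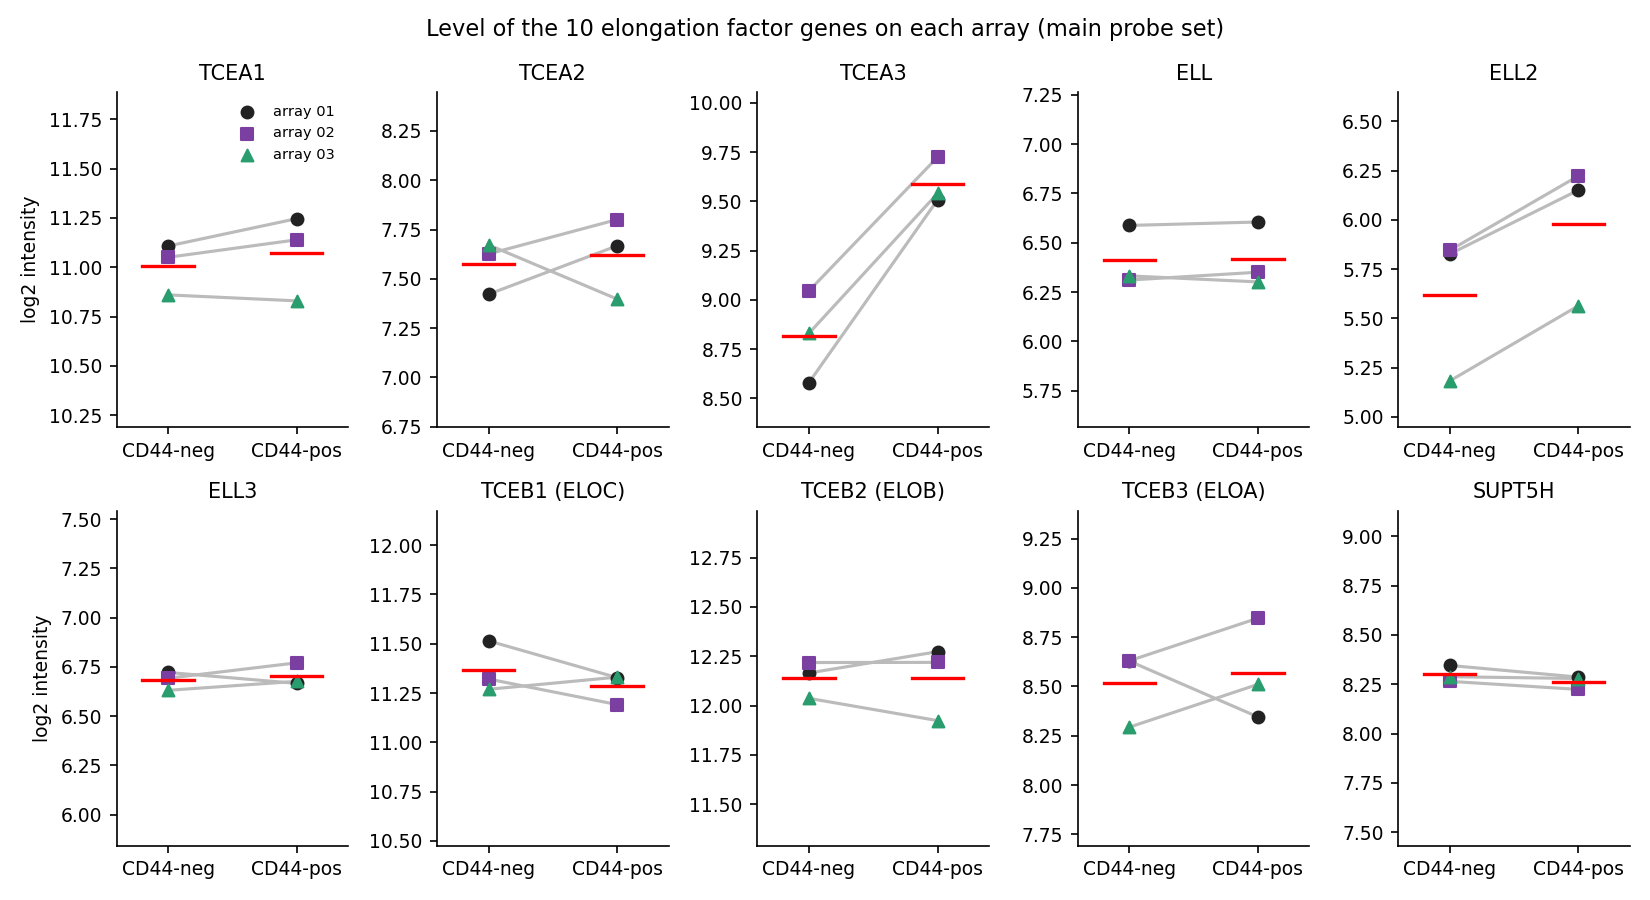
Log2 intensity of the main probe set of each of the 10 genes in the CD44-negative and CD44-positive arrays, with grey lines joining same-numbered arrays and red bars at group means; each panel spans the same range of log2 units around its own centre. TCEA3, which was selected on its difference, stands at 9.51 to 9.72 against 8.58 to 9.05. The groups of the other 9 genes overlap.

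The planned fit, without the replicate block, called 0 genes, so TCEA3 did not pass it either. The other TFIIS genes, TCEA1 and TCEA2, passed neither that fit nor the blocked one. TCEA1, the TFIIS gene expressed in most tissues, read 11.25, 11.14 and 10.83 on CD44-positive arrays 01 to 03 and 11.11, 11.05 and 10.86 on the CD44-negative ones. The groups overlapped, with array 03 lowest in each, and the difference was 0.07 ± 0.13 (SE, 95% interval -0.23 to 0.36). TCEA2, best known from testis, read 7.67, 7.80 and 7.40 against 7.42, 7.63 and 7.67. Its pairs differed by 0.25, 0.17 and -0.27, so that the sign depended on the pair, and the difference over all arrays was 0.05 ± 0.13 (95% interval -0.24 to 0.34). The remaining probe sets of TCEA1 gave differences of 0.01 and, at a dim level, -0.14. Both further TCEA2 probe sets gave -0.10, opposite in sign to the main one.

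Among the ELL genes, ELL2 lay higher in the CD44-positive array of each pair. ELL2 joins the kinase P-TEFb in the super elongation complex and is known for its part in secretory immunoglobulin mRNA production in plasma cells. Its main probe set, 226099_at, read 6.15, 6.22 and 5.56 on CD44-positive arrays 01 to 03 and 5.83, 5.84 and 5.18 on the CD44-negative ones. Array 03 was the lowest of each sort, and CD44-positive array 03 lay under CD44-negative arrays 01 and 02, so the groups overlapped. The pairs nevertheless differed by similar amounts, 0.32, 0.38 and 0.38.

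The ELL2 difference was 0.36 ± 0.23 (SE), with a 95% interval from -0.16 to 0.88. With the replicate block the SE was 0.07 and the interval 0.20 to 0.52, but ELL2 did not pass limma's test over all genes in either fit (adjusted p = 1.00 and 0.170). Without CD44-negative array 03 the unblocked difference was 0.14 and without CD44-positive array 03 it was 0.57. The 3 other ELL2 probe sets also lay higher on average, by 0.14, 0.09 and 0.29, the last 2 of them at dim levels. Of these, 226982_at, above the dim limit, differed by 0.36, -0.06 and 0.13 in pairs 01, 02 and 03.

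ELL and ELL3 stood close to 0 on their main probe sets. ELL, the founding member and a fusion partner of MLL in acute leukaemia, read 6.61, 6.35 and 6.30 against 6.59, 6.31 and 6.33, with array 01 highest in each sort. Its difference was 0.01 ± 0.12 (SE, 95% interval -0.27 to 0.29). A further ELL probe set, 1565254_s_at, differed by 0.18 on average with pair values of -0.13, 0.29 and 0.38. ELL3 read 6.67, 6.77 and 6.68 against 6.72, 6.69 and 6.63, a difference of 0.02 ± 0.08 (95% interval -0.17 to 0.21). Its second probe set gave 0.01, so both lay close together.

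**Figure D2:**
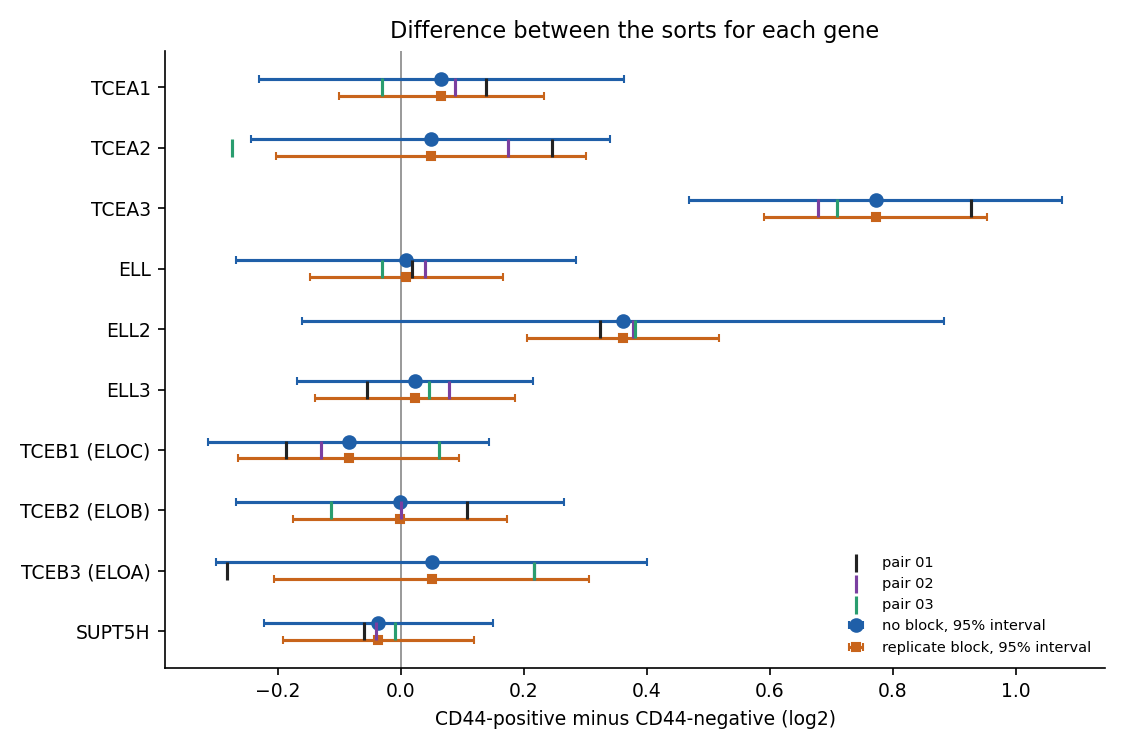
CD44-positive minus CD44-negative difference (log2) of each gene on its main probe set, with limma's 95% interval without the replicate block (blue) and with it (orange) and the 3 same-numbered pairs as ticks. TCEA3, which was selected on this difference, lies at 0.77, ELL2 at 0.36 and the other 8 genes between -0.08 and 0.07.

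Elongin is a trimer in which TCEB3 (ELOA) stimulates the polymerase and TCEB2 and TCEB1 (ELOB and ELOC) form the adaptor that also serves the VHL and SOCS-box ubiquitin ligases. TCEB3 read 8.35, 8.85 and 8.51 against 8.63, 8.63 and 8.29, CD44-positive arrays first. Its pairs disagreed, at -0.28, 0.22 and 0.22, and the difference was 0.05 ± 0.15 (SE, 95% interval -0.30 to 0.40). TCEB2 read 12.27, 12.22 and 11.92 against 12.17, 12.22 and 12.04, a difference of -0.0013 ± 0.12 (95% interval -0.27 to 0.26). TCEB1 read 11.33, 11.19 and 11.33 against 11.51, 11.32 and 11.27. Its groups overlapped, and it differed by -0.08 ± 0.10 (95% interval -0.31 to 0.14).

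The second TCEB1 probe set, 202823_at, differed by -0.20 ± 0.15 (95% interval -0.54 to 0.14), with all 3 pairs below 0 at -0.11, -0.11 and -0.37. None of the probe sets of TCEB1 and TCEB2 passed the test, with or without the block. The 4 further TCEB3 probe sets ranged from -0.11 to 0.08.

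SUPT5H, with 1 probe set, was the steadiest of the 10 across arrays. It read 8.29, 8.22 and 8.28 against 8.35, 8.26 and 8.29, a difference of -0.04 ± 0.08 (SE, 95% interval -0.22 to 0.15). All 3 pairs lay below 0, at -0.06, -0.04 and -0.01.

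None of the other 9 genes passed limma's test (adjusted p under 0.05 over all genes), with or without the replicate block. At an unadjusted p under 0.05 there were 0 of these 9 without the block and 1, ELL2, with it. The background of adjusted calls was 0% of all genes without the block and 0.0578% with it. For unadjusted p under 0.05 it was 1.97% and 7.49%. On average 6 of the 9 lay higher in the CD44-positive arrays, against 48.9% of all genes. The median difference over the 9 was 0.02, against -0.0025 over all genes tested.

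The 9 genes without TCEA3 had 25 probe sets, 21 of them above the dim limit. Probe sets of the same gene are not independent, so their counts are no separate support for those of the genes. Of the 21, 14 lay higher on average in the CD44-positive arrays, against 49.3% of all such probe sets. All 3 pairs were above 0 in 2 of the 21 and below 0 in 3, against 14.2% and 14.5%. Of the 25, 1 had groups that did not overlap with the CD44-positive arrays higher, the dim ELL2 probe set 214445_at, against 3.34% of all probe sets, and 0 did so in the other direction, against 3.21%.

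**Figure D3:**
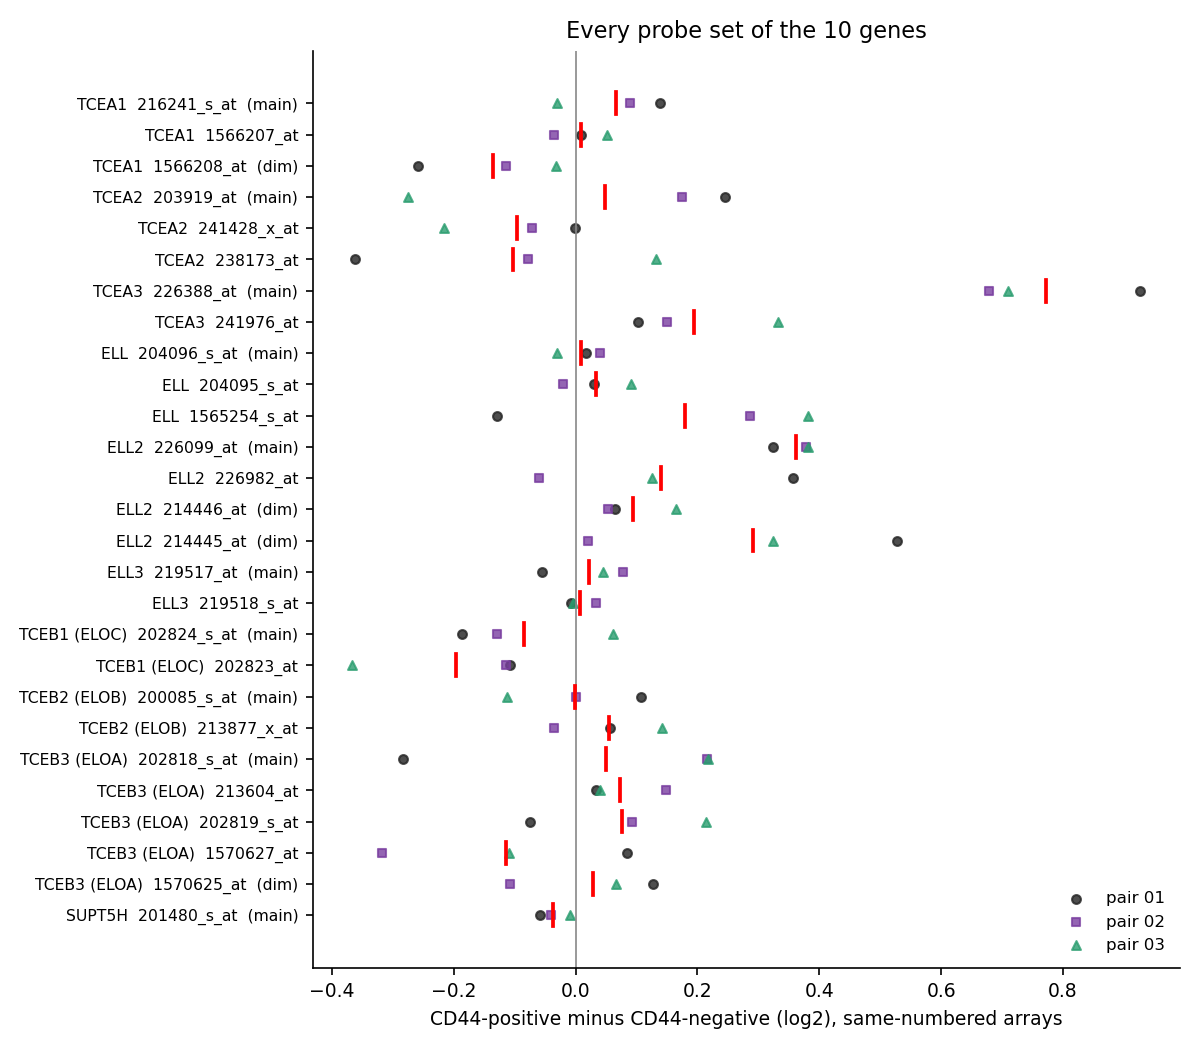
CD44-positive minus CD44-negative difference (log2) of same-numbered arrays for each of the 27 probe sets, with the mean as a red bar; probe sets under the dim limit and the main probe set of each gene are named as such. The main TCEA3 probe set lies at 0.68 to 0.93 and its second probe set at 0.10 to 0.33.

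The replicate numbers were compared as well. TCEA3 had been selected in a fit with the replicate block, so its values here are a description, and the test is read for the other 9 genes. The numbers were tested with limma's moderated F test in a model that also held the CD44 group, and 10.3% of all genes passed at an adjusted p under 0.05. Of the 9 genes 1 passed, a share close to that background, and 4 had an unadjusted p under 0.05, against 32.4% of all genes. This was ELL2, which averaged 5.99 and 6.03 over the arrays numbered 01 and 02 and 5.37 over those numbered 03 (log2, adjusted p = 0.0101). The low level in arrays 03 was present in both sorts, at 5.56 and 5.18. Of all genes, 3.55% had a wider range between replicate numbers.

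With the mean of the 4 ELL2 probe sets the gene did not pass (adjusted p = 0.0586), and with dim genes left out up to the 50th percentile it was not tested. On the probe set 226982_at the replicate means were 5.86, 5.95 and 5.38, again lowest in arrays 03. It did not pass limma's F test on every probe set (adjusted p = 0.0580). Nor did the dim 214446_at, also lowest in arrays 03, and the dim 214445_at, lowest in arrays 02 (same test, adjusted p = 0.240 and 0.670). The highest and lowest ELL2 replicate means on the main probe set lay 0.66 apart, against a median range of 0.21 over all genes. The 2 sorts lay 0.36 apart, against a median absolute difference of 0.06. The range and the difference are unlike measures and cannot be compared directly.

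TCEA1 ranged over 0.33 between replicate numbers, with means of 11.18, 11.09 and 10.84, and did not pass (adjusted p = 0.0817). TCEA3 ranged over 0.34, with means of 9.04, 9.38 and 9.19 in arrays 01, 02 and 03, so its lowest replicate was 01. ELL had means of 6.60, 6.33 and 6.32 (adjusted p = 0.0886), with arrays 01 apart from the rest. SUPT5H and ELL3 ranged over only 0.07 and 0.08, against a median of 0.21 over all genes. The lowest mean was that of replicate 03 in 7 of the 9 genes, against 43.1% of all genes. The same held in 15 of their 21 probe sets above the dim limit, against 46.5%, which repeats the same genes on the same arrays. Array 03 was the lowest of both sorts in TCEA1, ELL2 and TCEB2. In TCEA2, ELL, ELL3 and TCEB3 it was not the lowest of both. The means of TCEA2 were 7.54, 7.71 and 7.53, so that replicates 01 and 03 nearly tied, as did 02 and 03 in ELL.

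**Figure D4:**
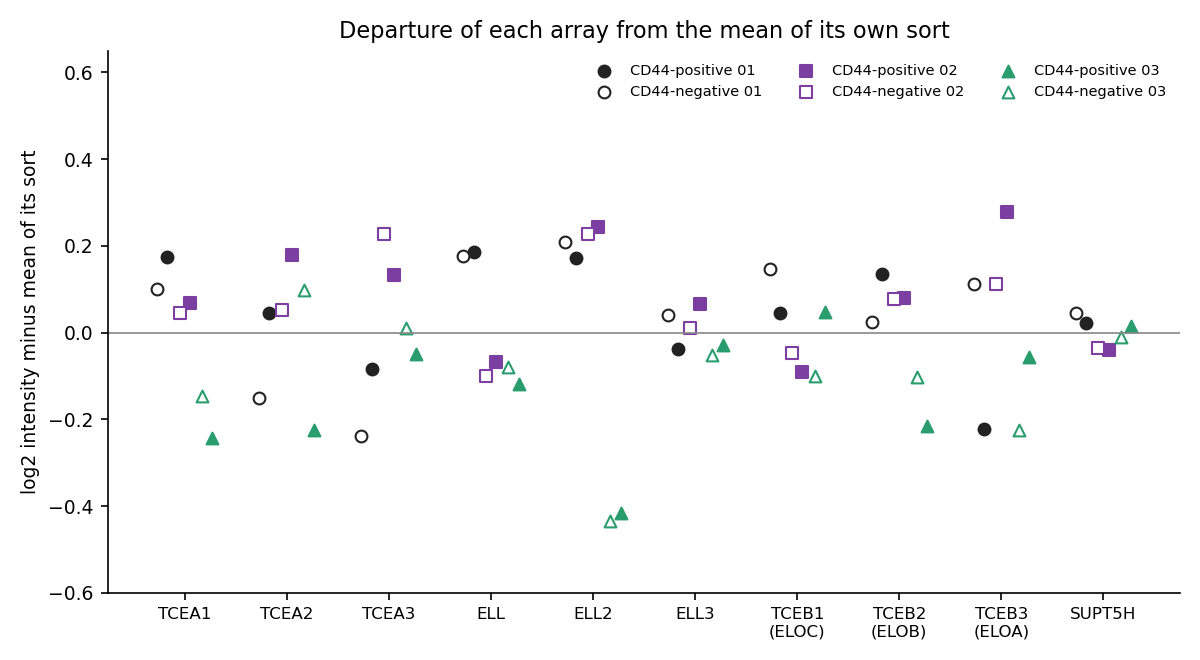
Log2 intensity of each array minus the mean of its own sort for the 10 genes, filled symbols for CD44-positive and open symbols for CD44-negative arrays, with symbol shape and colour giving the replicate number. In ELL2 both arrays numbered 03 lie about the same distance below their sorts, at levels of 5.56 and 5.18.

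The rest of the elongation machinery was read from 9 lists of 86 genes, of which 75 were tested. Of these 28 lay higher and 47 lower on average in the CD44-positive cells, with a median of -0.02 against -0.0025 over all genes. By limma 0 passed over all genes in either direction, with or without the replicate block. At an unadjusted p under 0.05 there were 0 of 75 without the block and 5 with it, 1 higher and 4 lower, against 4.24% and 3.25% of all genes. Groups did not overlap in 3 of the 75, against 5.43% of all genes, 1 of them higher and 2 lower in the CD44-positive arrays, against 2.82% and 2.6%.

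The gene with the largest difference was TCEAL3, an X-linked relative of TFIIS, at 5.81 ± 0.56 against 5.38 ± 0.32 (log2, SD, n = 3, CD44-positive first). Its pairs differed by 0.43, 0.86 and 0.02, a mean of 0.44 with a 95% interval from -0.19 to 1.07 (limma adjusted p = 1.00, with the block 0.520). Without arrays 03, the pair with the smallest TCEAL3 difference, the blocked difference was 0.65 (limma adjusted p = 0.0256). That smaller fit called 127 genes over all, against 8 for the replicate block on all arrays. TCEAL3 also lay near the dim limit of 5.12, and under it on CD44-negative array 01, at 5.01. SOCS2, a substrate receptor that binds elongins B and C, differed by 0.35 with pairs of 0.01, 1.24 and -0.21, so that pair 02 stood apart.

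On the other side POLR2K, a small subunit shared by the nuclear RNA polymerases, stood at 10.02 ± 0.03 against 10.19 ± 0.05 (SD, n = 3), without overlap. Its difference of -0.17 ± 0.08 (SE) did not pass limma's test (adjusted p = 1.00, with the block 0.650). ICE2, of the little elongation complex that contains ELL, differed by -0.22 with all pairs below 0, at -0.15, -0.08 and -0.44 (limma adjusted p = 1.00, with the block 0.621). GTF2F2, a TFIIF subunit, differed by -0.25 and TCEAL9 by -0.23, both with an unadjusted p under 0.05 with the block only. The remaining genes without overlap were the FACT subunit SUPT16H, at 0.08, and the remodeller CHD1, at -0.13. These last 4 were named after their values were seen.

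By complex, the median of 11 TFIIS-related genes was -0.07, with 2 higher and 9 lower on average. The median of 10 super and little elongation complex genes, the partners of the ELL proteins, was -0.06, with 3 higher and 7 lower. That of 14 genes of elongin-containing ubiquitin ligases was 0.02, with 8 higher. The 7 genes of P-TEFb and its 7SK inhibitor lay between -0.12 and 0.06, the 6 of the PAF1 complex between -0.10 and 0.08 and the 3 of DSIF and NELF between -0.01 and 0.08. The 7 genes of SPT6, FACT and chromatin passage had a median of 0.01, and the 5 of TFIIF and CDK12 one of -0.10. The 12 polymerase subunits had a median of -0.01. Between replicate numbers 7 of the 75 genes passed the F test, against 10.3% of all genes.

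**Figure D5:**
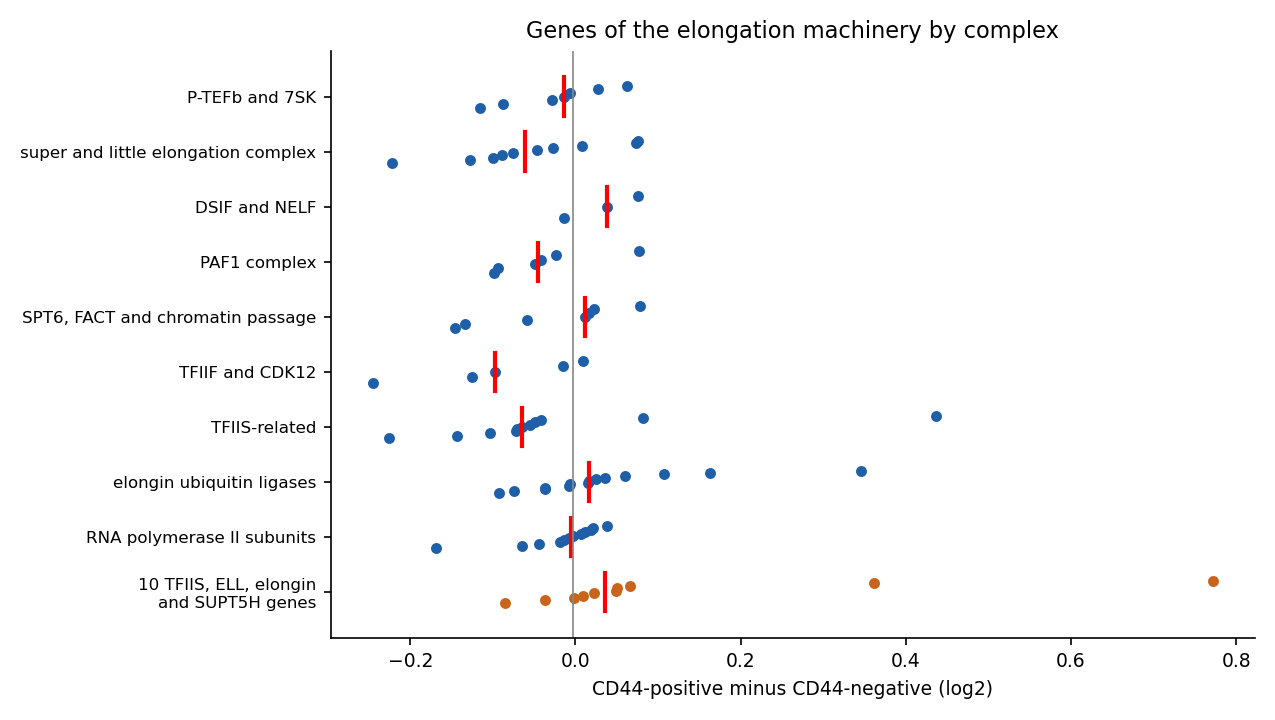
CD44-positive minus CD44-negative difference (log2) of each tested gene of 9 lists of the elongation machinery (blue) and of the 10 genes described here (orange), with list medians as red bars and the median over all genes as a grey line. The 75 listed genes lie between -0.25 and 0.44. TCEA3, at 0.77, was selected on this difference, so its place beyond them is no separate result.

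The genes whose profile over the 6 arrays was most like that of TCEA3 were found by the root mean square distance between log2 values centred on each gene's mean. Nearest were EN2, a homeobox transcription factor, at a distance of 0.13, GALNT5, which starts mucin-type O-glycans, at 0.14, the non-coding LINC01315 at 0.15, the anoctamin ANO4 at 0.15 and CPE, the carboxypeptidase that trims prohormones, at 0.17. Their differences between the sorts were 0.60, 0.51, 0.53, 0.53 and 0.57 in that order, each with 3 of 3 pairs above 0. EN2 averaged 4.91 in the CD44-negative arrays, under the dim limit. Of the other 9 elongation factors ELL2 came closest, at 0.38, with 13.3% of all genes closer still. The distance includes the CD44 difference on which TCEA3 was chosen, so it describes these arrays only.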

How the data were processed

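The deposited values were linear intensity values of probe sets to which RMA, which corrects background, normalizes by quantiles and summarises probe sets, had been applied, per the submitters' processing notes. The labelling started from 100 ng of total RNA, per the labels' protocols. The version of RMA and any genome build are not given in the sources used here. Log2 was taken with no pseudocount, although log2 values had been assumed in the design. RMA can compress differences near background.

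Of 54675 probe sets, 41091 had 1 gene, 1801 several and 11721 none, besides 62 controls. Symbols were updated by gene ID from the RefSeq table for 41037. Of several probe sets of a gene the one with the highest mean over the 6 arrays stood for it, and genes under the 30th percentile were left out, which left 13842. Levels of different probe sets were not compared.

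Groups were compared with limma 3.58.1 (R 4.3.3). Tests were two-sided at a threshold of 0.05 after Benjamini-Hochberg adjustment over all genes. The same fit on every probe set gave the values of the 27 probe sets, and a moderated F test compared the replicate numbers. Fits were tested on simulated data. Tables and plots used Python 3.11.15, pandas 2.3.3 and matplotlib 3.10.9.

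The labels number both sorts 01 to 03. Arrays of the same number departed together from their group means (correlation 0.465, 0.689 and 0.626). Their differences are therefore shown as pairs, and a fit with the replicate block is printed as an alternative where it matters. The planned CD44 fit, which gave the SEs, intervals and counts not marked as blocked, did not use the pairing. The pairing comes from the data and not from the labels.

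The 10 genes and all lists were chosen with earlier results of these data known. Named by rule were the 10 genes, CD44, the 5 genes nearest to TCEA3 and, of the lists, genes past the adjusted threshold or else, in each direction, the 2 of smallest unadjusted p.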

Additional observations from a re-analysis of the deposited data

How the results depend on the processing

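The number of arrays limits the precision of every value, and signal near background limits the dim probe sets. Differences of single genes among the 10 were recomputed under other settings, 176 in all. Of these, 175 moved by less than the SD between replicates, taken as the larger of the SDs of both sorts. The replicate block on all arrays, the dim filters and the variance trend cannot change a difference. Leaving out a single array can move it by only part of that SD. The count of 175 was thus largely fixed in advance and does not measure how firm the differences are. Another sign than the planned value was found in 28, none of them of TCEA3 or ELL2. The TCEA3 difference ranged from 0.48, with the mean of its probe sets, to 0.89, without CD44-negative array 02, and from 0.65 to 0.89 with single arrays left out. With the replicate block it was 0.77, and from 0.69 to 0.82 without 1 pair. The blocked call on which TCEA3 was selected ended without arrays 01 (limma adjusted p = 0.0601).

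None of the other 9 genes was called under any setting run. Over all genes the count of calls was 0 as planned, 8 with the replicate block, 2 without a dim filter, 2 with every probe set, 1 with array weights and 1 once suffixed probe sets (_s_at, _x_at) were left out. It ranged from 0 to 1 with single arrays left out and, with the replicate block, was 10, 63 and 127 without arrays 01, 02 and 03. Of the elongation lists 0 genes were called as planned and from 0 to 1 with a pair left out of the blocked fit. Among the 27 probe sets 0 were called as planned and 1, the main one of TCEA3, with the replicate block. That call restates the blocked difference on which TCEA3 was selected and is no separate result. Replicate numbers differed in 1430 genes as planned, 745 without a dim filter, 932 without the suffixed probe sets, 2983 with every probe set and 3149 with a variance trend and robust moderation. Under this last setting 4 of the 10 genes passed, ELL2, ELOB, TCEA1 and TCEA3, against 22.7% of all genes. TCEA3 is listed there as a description only. At the 50th percentile limit 1 passed, TCEA1, against 20.8%. The cause of these changes was not tested.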

Other observations

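Genes that lie beside TCEA3 in the RefSeq gene table (GRCh38.p14) were read out after the data had been seen. Of the 10 protein-coding genes on either side, 12 of 20 were tested, and their differences ranged from -0.05 to 0.27 with a median of 0.03. TCEA3, at 0.77, was selected on its difference, so smaller values in its neighbours were likely in advance. By limma 0 passed over all genes with or without the replicate block, and at an unadjusted p under 0.05 there were 0 without and 1 with it, against 1.97% and 7.49% of all genes. That gene was ID3, which encodes an inhibitor of helix-loop-helix transcription factors. ID3 stood at 10.21 ± 0.21 against 9.94 ± 0.08 (log2, SD, n = 3), the 1 neighbour without overlap, against 5.43% of all genes, and differed by 0.51, 0.10 and 0.21 in pairs 01, 02 and 03. The immediate neighbours ZNF436 and ASAP3 differed by 0.13 and 0.13, with groups that overlapped. TCEB3 (ELOA) is the fifth gene on the ASAP3 side, at 0.05.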
